A study of Mus musculus with 4 samples.

Results

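A list of 35 nuclear receptor genes was examined for open chromatin in visceral adipose tissue. It covers thyroid hormone, retinoid, fatty acid, sterol, vitamin D, xenobiotic and orphan receptors and leaves out, among others, the steroid hormone receptors and PPAR gamma. The 35 genes were set beside 21000 protein-coding genes with a curated RefSeq transcript. For each gene, peaks were collected within 500 bp of any curated transcription start site and from 20 kb upstream of the first start site to the end of the gene. The receptors had 59 distinct curated start sites. Start sites of one gene less than 1000 bp apart shared a window and were counted as one promoter, which gave 55 promoters.

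ATAC-seq, in which a transposase cuts accessible DNA, was done on visceral fat of CD-1 mice at 8 weeks of age. CD-1 is an outbred stock, so that animals of one group differ in genotype. The control group held 2 libraries from descendants of pregnant dams given sesame oil. The BPA group held 2 libraries from descendants of dams injected daily with bisphenol A (BPA), a plasticiser, at 50 mg/kg from embryonic day 7.5 to 13.5. The generation of the BPA animals differs between the labels and the text of the study, so that the number of generations between exposure and tissue is not certain. Neither sex nor batch was labelled, and for BPA 2 the replicate number in the label is not the one its list was deposited under. With 2 libraries a group, the smallest two-sided p of an exact permutation test between groups is 0.333, so that no test between groups was run and every difference below is a description of these libraries.

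Nuclear receptors are transcription factors that bind short DNA elements built from the hexamer AGGTCA and switch between corepressors and coactivators, most of them when a fat-soluble ligand enters their ligand pocket. The thyroid hormone, retinoic acid, vitamin D, liver X and peroxisome proliferator-activated receptors bind DNA as pairs with a retinoid X receptor. In fat tissue they are known for sensing fatty acids, sterols and hormones and for setting lipid storage and breakdown.

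Each library gave its own peak list, and peaks were compared by rank, the position of a peak in its list ordered by q-value, in percent of the list. A low rank is a strong peak, and a receptor is called ahead in a group when both of its libraries rank the peak better than both libraries of the other group. A library without a promoter peak counts as ranking it last. The best promoter of each library was used, so that start sites of one gene could differ between libraries. Where 4 values follow each other, they stand for control 1, control 2, BPA 1 and BPA 2 in this order. The lists held 72375 to 98060 peaks. The number of reads is not in the lists, and the pile-up of reads at each peak summit was solved from the deposited fold and p-value. Its median over all peaks was 22 and 23 in the controls, 19 in BPA 1 and 38 in BPA 2, and the lowest local background, which scales with depth, was 2.85, 2.70, 1.16 and 3.80. BPA 1 was therefore the shallowest and BPA 2 the deepest library, and a missing peak says only that none was detected at that depth. The tissue label was checked against marker promoters. Every library had a promoter peak at all 7 adipocyte markers (Cebpa, Pparg, Fabp4, Lep, Cidec, Plin1 and Adipoq), and none had one at any of 4 hepatocyte and 3 enterocyte markers. Of 3 mesothelial markers 2, 2, 2 and 1 had one, of 3 epithelial markers 2, 0, 1 and 1, and of 3 neuron markers 2 in every library. The check was of presence and not of rank. Among the adipocyte markers, Adipoq, Plin1, Cidec, Lep and Fabp4 ranked best in control 2, and Pparg and Cebpa in BPA 2. Plin1 ranked at 74.8%, 23.1%, 68.9% and 89.0%, and Cebpa at 15.7%, 14.9%, 5.54% and 4.42%.

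Most of the receptors were open at a promoter. A promoter peak was present in each of the 4 libraries for 24 of the 35 receptors (68.6%), against 57.9% of all genes. Another 6 had one in 1 to 3 libraries, and 5 (14.3%) had none in any library, against 30.4% of all genes. The receptors without a promoter peak were Nr1i3, a xenobiotic receptor of liver, Hnf4a and Hnf4g, receptors of liver and gut epithelium, Nr2e3, a photoreceptor regulator, and Nr0b1, a repressor of the adrenal gland and gonad. At the level of single start sites, 34 of 59 had a peak in all 4 libraries (57.6%), and the share over all genes was 55.8%.

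By subfamily, 13 of 15 receptors of subfamily 1, 7 of 12 of subfamily 2, 3 of 3 of subfamily 4 and the only member of subfamily 6 were open in every library. At curated start sites, neither of the 2 NR5A receptors and neither of the 2 receptors of subfamily 0 was. Within subfamily 1 the thyroid hormone, retinoic acid, peroxisome proliferator-activated, ROR and liver X groups were complete.

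Receptor promoters were seldom among the strongest peaks. The promoter peak was in the best 10% of every list for 2 of 35 receptors (5.71%), Nr2c1 and Nr2c2, against 23.3% of all genes. Among genes with a promoter peak in all 4 libraries, the median rank of the receptors was 17.5% and 17.1% in the controls, 11.3% in BPA 1 and 7.50% in BPA 2, and the median of all genes was 8.46%, 9.77%, 8.44% and 5.94%. The receptors thus lay behind the median gene in each list. The plot of promoter ranks shows both features, the grey rows of receptors without a peak and the mid-range of most others.

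**Figure D1:**
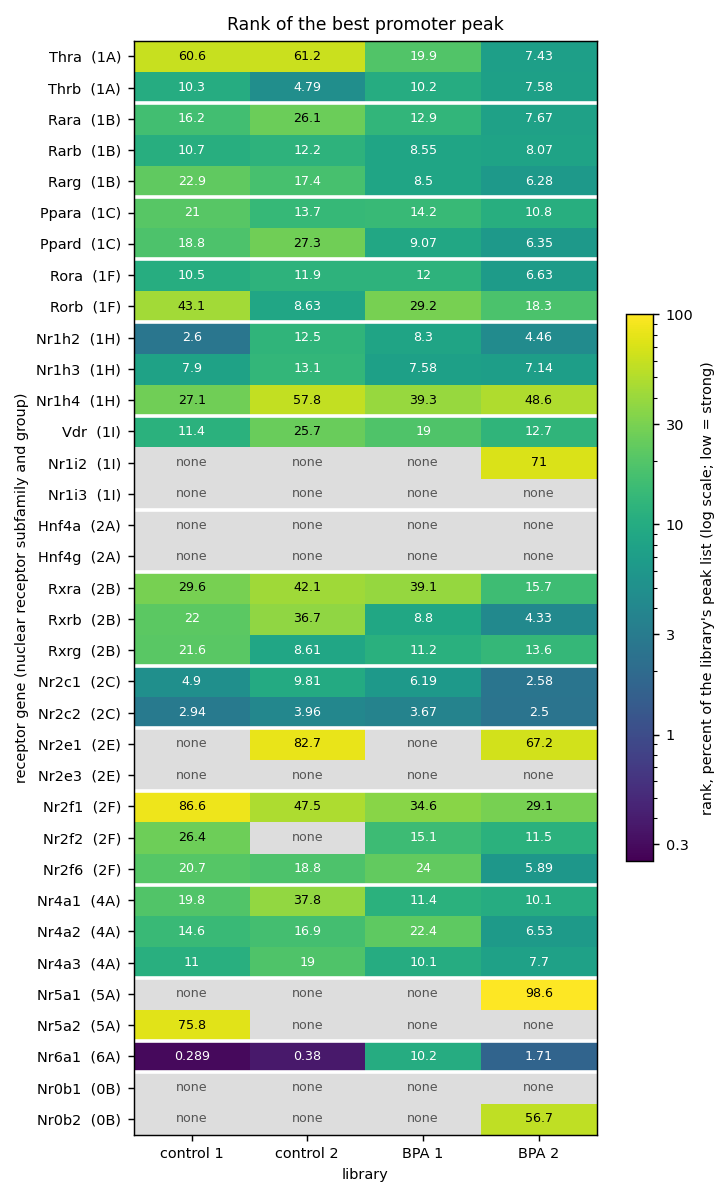
Rank of the best promoter peak of the 35 receptors (rows, grouped by subfamily and group) in the 4 libraries (columns), in percent of each library's peak list on a log colour scale; grey cells marked none had no promoter peak. Nr2c1 and Nr2c2 lay within the best 10% in every library, and Nr6a1 reached 0.289% and 0.380% in the controls.

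Open start sites lay in CpG-rich sequence. A window of 500 bp either side was called CpG-rich at a G+C content of at least 50% and a ratio of observed to expected CpG of at least 0.6. Of the 34 start sites with a peak in all 4 libraries 28 were CpG-rich, of the 8 with a peak in 1 to 3 libraries 3 were, and of the 17 without a peak 0 were. The median CpG ratio was 0.757 in the first set and 0.235 in the last. Genes at large showed the same split. A promoter peak in all 4 libraries was found at 21 of 24 receptors with a CpG-rich promoter (87.5%) and at 89.2% of all such genes, and at 3 of 11 receptors without one (27.3%) and 26.4% of all such genes. The 3 exceptions were Nr1h3 and Nr1h4, which bind oxysterols and bile acids, and Rxrg.

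**Figure D2:**
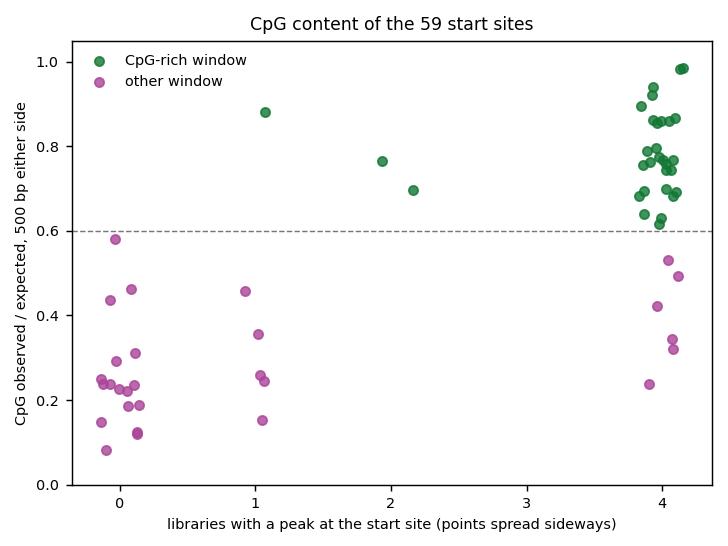
CpG observed over expected ratio (y axis, 500 bp either side) of the 59 receptor start sites by the number of libraries with a peak there (x axis, points spread sideways); green points are CpG-rich windows and the dashed line marks a ratio of 0.6. None of the 17 start sites at 0 libraries is CpG-rich, and 28 of 34 at 4 libraries are.

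Thra, the alpha receptor for thyroid hormone, has its start site at chr11:98741785 (plus strand, mm10) and had the widest gap between the groups. Its promoter peak ranked at 60.6% and 61.2% in the controls and at 19.9% and 7.43% in BPA, with summit pile-ups of 30, 30, 65 and 301. Both BPA libraries were ahead of both controls by 40.7 points of rank at the nearest pair, and 0.485% of the 12166 genes with a promoter peak in all 4 libraries had a gap as large. The peak was 452 and 337 bp wide in the controls and 944 and 2742 bp in BPA. The regions farther upstream that were open in all 4 libraries did not share this gap. The region -12332 bp from the start site, at the start of Med24, ranked at 13.1%, 15.6%, 14.0% and 12.1%, and the region -20115 bp away at 22.0%, 19.5%, 24.1% and 27.2%. Inside the gene, both shared regions of intron 1 were ahead in both BPA libraries as well. The one 5660 bp from the start site ranked at 76.5%, 63.1%, 49.04% and 20.4%, and the one 9138 bp from it at 48.7%, 67.2%, 47.7% and 42.9%. A further region open in all 4 libraries inside the gene, around chr11:98754400-98754699, was ahead in neither group. Of the 6 such regions of the locus, 3 were ahead in both BPA libraries and 1, the region -20115 bp away, in both controls.

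Thrb, the beta receptor, was open at its upstream start site (chr14:17660960) with ranks of 10.3%, 4.79%, 10.2% and 7.58%, and no library had a peak at the downstream start site (chr14:17981644). The libraries of the 2 groups overlapped in rank. The peak summits lay -147 to 58 bp from the start site in control 2 and both BPA libraries but at -1690 bp in control 1, where a wide peak covered the window. The open promoter holds one copy of the receptor hexamer, at bases -184 to -179 counted with the start site as 0, which is shown in capitals because thyroid hormone and retinoid receptors recognise these letters. The sequence is RefSeq's, chr14:17660710-17661009, plus strand, GRCm38.p6.
Thrb promoter: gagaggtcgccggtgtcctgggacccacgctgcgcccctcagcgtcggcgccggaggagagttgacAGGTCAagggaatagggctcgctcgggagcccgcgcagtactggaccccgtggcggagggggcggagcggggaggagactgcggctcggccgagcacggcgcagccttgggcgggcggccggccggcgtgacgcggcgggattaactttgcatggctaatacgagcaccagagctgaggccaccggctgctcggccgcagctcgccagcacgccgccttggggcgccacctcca

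All 3 receptors for retinoic acid, the active form of vitamin A, were open in all 4 libraries, and each ranked better in both BPA than in both control libraries by q-value, an order that turned for Rara when peaks were ordered by fold. Only 1 of the Rarb promoters was open. Its long upstream promoter (chr14:17082331, minus strand) had no peak in any library, while the downstream promoter (chr14:16575476) ranked at 10.7% and 12.2% in the controls and at 8.55% and 8.07% in BPA. The gap of 2.13 points was matched or passed by 27.0% of genes. The open promoter is the one known to respond to retinoic acid, and its sequence holds 1 match to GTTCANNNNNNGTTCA, a direct repeat of the receptor element, at bases -52 to -37. This pattern, searched on both strands, was found in 0.0457% of the 26242 promoter windows of all genes and in no other receptor promoter. The RefSeq window, chr14:16575427-16575726 on the minus strand of GRCm38.p6, is printed with the repeat in capitals.
Rarb promoter: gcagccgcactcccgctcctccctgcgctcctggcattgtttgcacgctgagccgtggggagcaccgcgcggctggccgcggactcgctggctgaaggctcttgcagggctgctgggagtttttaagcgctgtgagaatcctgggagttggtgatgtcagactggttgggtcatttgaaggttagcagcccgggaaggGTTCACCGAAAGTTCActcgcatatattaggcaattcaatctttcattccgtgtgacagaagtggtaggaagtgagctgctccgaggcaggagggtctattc

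Rara was open at 2 of its 4 promoters. The first (start sites chr11:98937696 and chr11:98937718) ranked at 16.2% and 32.2% in the controls and 14.4% and 7.67% in BPA. The third (chr11:98960471) ranked at 26.6%, 26.1%, 12.9% and 9.26% in the same order, and its peak summits lay -834 to -561 bp from the start site. Both promoters were ahead in both BPA libraries. With peaks ordered by fold, the best Rara promoter was instead ahead in both controls (52.7% and 48.3%, against 56.7% and 54.7% in BPA). Rarg was open at both of its promoters, at 22.9%, 27.7%, 14.9% and 12.1% for chr15:102257522 and at 28.3%, 17.4%, 8.50% and 6.28% for chr15:102246500. The gap between the groups, taken over the best promoter in each library, was 3.28 points for Rara and 8.88 points for Rarg.

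Ppara, which turns on fatty acid oxidation, ranked at 21.0%, 13.7%, 14.2% and 10.8%, and the groups overlapped. Ppard, a receptor of the same group with wide tissue distribution, ranked at 18.8%, 27.3%, 9.07% and 6.35%, with both BPA libraries ahead by 9.71 points. A gap as large was present in 9.56% of genes. Ppard had 15 regions outside its promoter in a locus of 88.7 kb, among them one -8595 bp from the start site that ranked at 8.31%, 10.6%, 6.66% and 7.34%.

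Rora, a receptor known for its part in the circadian clock and lipid metabolism, was open at both promoters. The upstream one (chr9:68653786) ranked at 43.2% and 36.5% in the controls and 16.2% and 11.8% in BPA. The downstream one (chr9:69289841), ranked at 10.5%, 11.9%, 12.0% and 6.63%, was the stronger in each library and did not separate the groups. Rorb, known mainly from the nervous system, was open at its upstream start site (chr19:19111196) only, with ranks that ran from 8.63% in control 2 to 43.1% in control 1, so that the spread inside the control group exceeded any difference between groups. BPA 1 and BPA 2 lay between them at 29.2% and 18.3%.

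Nr1h2 and Nr1h3 encode the liver X receptors, which sense oxysterols. Nr1h2 ranked at 2.60%, 12.5%, 8.30% and 4.46%, and Nr1h3 at 7.90%, 13.1%, 7.58% and 7.14%. Only Nr1h3 separated the groups, by 0.315 points, and 37.9% of genes had a gap as large. This order turned to ahead in both controls when predicted transcripts were counted, since one of them starts at a region -7675 bp away that also holds the start of Acp2 (1.37%, 3.14%, 9.37% and 6.78%), and by fold the groups overlapped. Nr1h4, the bile acid receptor known from liver and gut, was open at its upstream start site (chr10:89533622) at 27.1%, 57.8%, 39.3% and 48.6%, with no peak at the downstream one (chr10:89506658). Its groups overlapped. Vdr, the vitamin D receptor, ranked at 11.4%, 25.7%, 19.0% and 12.7% without a separation of the groups.

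The xenobiotic receptors Nr1i2 and Nr1i3 and the receptors Hnf4a and Hnf4g had few or no peaks at their start sites. Nr1i2, the pregnane X receptor, had a promoter peak in BPA 2 alone, at 71.0%, and the summit of that peak lay -908 bp from the start site, outside the window. The same region had a peak in control 2 (47.9%, summit at -883 bp) and in BPA 1 (78.7%, summit at -850 bp) that did not reach into the window, so the single-library count of Nr1i2 follows from peak width. Nr1i3, Hnf4a and Hnf4g had none at their curated start sites. Hnf4a nevertheless had 3 regions in its locus that were open in all 4 libraries, the best of them inside intron 1 (chr2:163534720-163535669) at 25.4%, 20.7%, 28.9% and 13.8%. The Hnf4g locus of 172 kb held 4 regions, each in a single library.

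The retinoid X receptors are the partners that many of the others need for DNA binding. Rxra ranked at 29.6%, 42.1%, 39.1% and 15.7% at its first start site (chr2:27677201) and had no peak at the 2 internal ones. The summits of its promoter peaks lay -927 and -794 bp from the start site in the controls and -422 and -383 bp in BPA. Rxrb ranked at 22.0%, 36.7%, 8.80% and 4.33%, ahead in both BPA libraries by 13.2 points, which 6.44% of genes matched or passed. Its peak also covers the start site of the neighbouring gene Slc39a7 in every library, so that the 2 genes cannot be told apart there.

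Rxrg, the member of this group known from muscle and brain, was open at both start sites although neither is CpG-rich. The upstream one (chr1:167598362) ranked at 68.6%, 35.2%, 41.1% and 54.3% and the internal one (chr1:167618265) at 21.6%, 8.61%, 11.2% and 13.6%. The internal promoter was the stronger in every library, and the groups overlapped at both. It holds 1 receptor hexamer at bases -88 to -83, in capitals in the RefSeq window chr1:167618015-167618314 (plus strand, GRCm38.p6).
Rxrg internal promoter: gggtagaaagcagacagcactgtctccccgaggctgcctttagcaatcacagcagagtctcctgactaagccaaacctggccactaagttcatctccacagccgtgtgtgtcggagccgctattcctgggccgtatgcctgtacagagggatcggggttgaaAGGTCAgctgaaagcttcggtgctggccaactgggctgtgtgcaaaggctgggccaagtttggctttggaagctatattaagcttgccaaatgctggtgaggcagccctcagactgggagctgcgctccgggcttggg

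Nr2c1 and Nr2c2, widely expressed repressors named after testis, had the strongest promoters of the list in the sense that no library placed them outside the best 10%. Nr2c1 ranked at 4.90%, 9.81%, 6.19% and 2.58%, and Nr2c2 at 2.94%, 3.96%, 3.67% and 2.50%. Nr2c2 had one peak over both of its promoters (chr6:92091418 and chr6:92092433), with the summit nearer to the second. Neither gene separated the groups by q-value, and by fold Nr2c1 was ahead in both BPA libraries and Nr2c2 in both controls.

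Nr2f1, a COUP-TF receptor, ranked at 86.6% and 47.5% in the controls and 34.6% and 29.1% in BPA, with summits -533 to -441 bp from its upstream start site (chr13:78198873). The control libraries differed from each other by more than the gap of 12.9 points between the groups. In BPA 2 the peak also reaches the start site of the neighbouring transcript A830082K12Rik. Its relative Nr2f6 ranked at 20.7%, 18.8%, 24.0% and 5.89%, and the groups overlapped. Nr2e1, a receptor of neural stem cells, had weak promoter peaks in control 2 (82.7%) and BPA 2 (67.2%), and Nr2e3 had none.

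Nr2f2, a COUP-TF receptor of mesenchymal and venous endothelial cells, illustrates the effect of the window. Counted by peaks within 500 bp, it had a promoter peak in control 1 at 26.4% (upstream start site, chr7:70366746) and in BPA 1 and BPA 2 at 15.1% and 11.5% (downstream start site, chr7:70360593). In fact all 4 libraries had a peak upstream of the downstream start site, with summits at -1158, -1176, -1174 and -1169 bp, and only the BPA peaks reached into the window. At that site the ranks were 29.6%, 21.0%, 15.1% and 11.5%. The region 1633 to 1771 bp inside the gene from the upstream start site went the other way, at 26.4% and 21.5% in the controls and 76.4% and 73.1% in BPA. In control 1 the peak of this second region also covers the start site of the neighbouring transcript B130024G19Rik. The Nr2f2 locus thus held one region that ranked better in both BPA libraries and another that ranked better in both controls.

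The 3 NR4A genes encode receptors without a known hormone that are switched on within minutes of a stimulus. Nr4a1 (chr15:101266846) ranked at 19.8%, 37.8%, 11.4% and 10.1% and Nr4a3 (chr4:48045305) at 11.0%, 19.0%, 10.1% and 7.70%. Both were ahead in both BPA libraries, by 8.37 and 0.835 points, which 11.3% and 34.0% of genes matched or passed. Nr4a2 was open at both promoters, at 14.6%, 16.9%, 22.4% and 6.53% for the upstream start site (chr2:57124003) and at 49.8%, 69.9%, 30.8% and 12.8% for the downstream one (chr2:57115038). The window of the downstream promoter holds the cyclic AMP response element TGACGTCA at bases -47 to -40.

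The strongest region of the NR4A loci was not a promoter. It lay -20387 bp from the Nr4a1 start site (chr15:101245995-101247076, across the outer edge of the locus) and ranked at 5.30%, 4.95%, 0.993% and 1.67%, with pile-ups of 66, 69, 169 and 448. Nr4a3 had a similar region -2097 bp from its start site (chr4:48042696-48043898) at 5.24%, 9.13%, 4.32% and 2.82%. Both lie in the best 10% of every list. The 300 bases around each summit are printed from GRCm38.p6, plus strand, at chr15:101246309-101246608 and chr4:48043058-48043357; neither holds any of the motifs searched, so no capitals are used.
Nr4a1 upstream region: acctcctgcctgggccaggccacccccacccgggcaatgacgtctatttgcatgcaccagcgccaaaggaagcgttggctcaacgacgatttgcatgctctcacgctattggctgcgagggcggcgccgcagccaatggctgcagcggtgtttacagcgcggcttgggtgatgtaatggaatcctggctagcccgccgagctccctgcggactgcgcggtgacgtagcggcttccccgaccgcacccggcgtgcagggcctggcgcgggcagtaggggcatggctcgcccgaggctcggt
Nr4a3 upstream region: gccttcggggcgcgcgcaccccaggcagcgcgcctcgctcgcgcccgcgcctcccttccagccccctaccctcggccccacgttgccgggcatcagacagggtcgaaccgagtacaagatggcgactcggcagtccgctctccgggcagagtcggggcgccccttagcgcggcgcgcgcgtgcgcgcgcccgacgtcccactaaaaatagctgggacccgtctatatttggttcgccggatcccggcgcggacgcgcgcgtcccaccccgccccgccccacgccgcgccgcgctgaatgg

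Across the NR4A loci, 10 regions had a peak in all 4 libraries, and 9 of them ranked better in both BPA than in both control libraries. This was so for 4 of 4 regions of Nr4a1, 2 of 3 of Nr4a2 and 3 of 3 of Nr4a3. The exception was the upstream promoter of Nr4a2, where BPA 1 was last. Over the whole genome, 27.7% of the regions with a peak in all 4 libraries ranked better in both BPA libraries. Ordered by fold, the counts were 7 of 10 and 25.8%. The NR4A regions include promoters of all 3 genes, so that the genome-wide share is not a like comparison. By q-value it was 21.7% away from start sites. For promoters of genes with a promoter peak in all 4 libraries it was 40.7%. The 3 genes were singled out after their values were seen, and regions of one locus are not independent.

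The last subfamilies were mostly closed. Nr5a1, the regulator of steroid synthesis in adrenal gland and gonad, had 1 promoter peak, in BPA 2 at 98.6%, and Nr5a2, known from liver and pancreas, had 1 in control 1 at 75.8%. The Nr5a1 peak, with a −log10 q-value of 2.21, is close to the detection limit, and the Nr5a2 peak, with 3.40, less so. The summit of the Nr5a2 peak lay 905 bp inside the gene from the downstream start site, outside the window. With predicted transcripts counted as well, each of the 4 libraries had a peak at some promoter of Nr5a2, although no single region of its locus had a peak in all of them. Nr0b2, a repressor known from liver that lacks a DNA-binding domain, had a peak in BPA 2 alone, at 56.7%. Of the 4 receptors with a promoter peak in a single library, 3 (Nr1i2, whose region was also open in control 2 and BPA 1, Nr5a1 and Nr0b2) had it in BPA 2, the library with the highest pile-up, and the part of depth in this was not tested. The steroidogenic markers Star, Cyp11a1 and Cyp17a1 had a promoter peak in both controls, in all 4 libraries and in none, respectively.

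Nr0b1 had no peak in any library anywhere in its locus of 24.2 kb. Its promoter nevertheless holds the hexamer AGGTCA, at bases -126 to -121, and is printed as an example of a closed promoter with that element (RefSeq, chrX:86191525-86191824, plus strand, GRCm38.p6).
Nr0b1 promoter: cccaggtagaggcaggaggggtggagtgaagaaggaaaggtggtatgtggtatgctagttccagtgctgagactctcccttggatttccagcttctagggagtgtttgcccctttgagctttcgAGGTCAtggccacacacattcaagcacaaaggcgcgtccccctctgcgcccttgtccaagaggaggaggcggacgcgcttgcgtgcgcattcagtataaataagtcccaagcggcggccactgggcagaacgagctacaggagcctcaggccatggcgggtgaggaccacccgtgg

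Nr6a1, a repressor named after germ cells, had the best-ranked receptor promoter peak in both controls and in BPA 2 but not in BPA 1. By fold, Rara and Nr2c2 were also ahead in both controls, but by q-value Nr6a1 alone was. It ranked at 0.289% and 0.380% in the controls and at 10.2% and 1.71% in BPA, at the upstream start site (chr2:38926461, minus strand). The controls were ahead by 1.33 points at the nearest pair, and 11.1% of genes had a gap as large in that direction. The summit stood at -204, -199, -200 and -201 bp in the 4 libraries, so the same site was measured in each. The downstream promoter (chr2:38784515) had a peak in control 1 alone, at 95.2%. The upstream window carries the cyclic AMP response element at bases 35 to 42, in capitals in the RefSeq sequence chr2:38926412-38926711 (minus strand, GRCm38.p6).
Nr6a1 upstream promoter: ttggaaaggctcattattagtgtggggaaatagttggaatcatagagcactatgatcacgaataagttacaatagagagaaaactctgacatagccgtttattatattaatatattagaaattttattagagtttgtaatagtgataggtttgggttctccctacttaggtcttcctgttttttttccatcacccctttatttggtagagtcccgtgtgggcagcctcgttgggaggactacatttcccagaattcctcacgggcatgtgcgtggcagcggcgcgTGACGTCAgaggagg

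The hexamer AGGTCA, searched on both strands, was found in 9 of the 59 windows of 300 bases, and 14.1% of all promoter windows hold it. At the start sites of these windows, a peak was present in every library in 3 cases, in a single library in 1 and in none in 5. TGACGTCA was found in 3 of 59 receptor windows (Nr2e1, Nr4a2 and Nr6a1) and in 2.38% of all windows. The direct repeats AGGTCANAGGTCA, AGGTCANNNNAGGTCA and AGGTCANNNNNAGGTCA were in no receptor window. These are matches of letters, and no binding was measured.

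More than 1 promoter was annotated for 17 receptors. Every promoter was open in all libraries for 5 of them (Rarg, Rora, Rxrg, Nr2c2 and Nr4a2), some but not all for 8 (Thrb, Rara, Rarb, Rorb, Nr1h4, Rxra, Nr2f1 and Nr6a1) and none for 4 (Hnf4a, Nr2f2, Nr5a1 and Nr5a2). The open promoter was the one farthest upstream in Thrb, Rorb, Nr1h4, Rxra, Nr2f1 and Nr6a1, and the downstream one in Rarb.

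The comparison of control and BPA libraries asks whether receptor promoters differ in accessibility between descendants of exposed and unexposed dams. A promoter peak present in both BPA and absent from both control libraries was found for 0 receptors, against 2.51% of all genes, and the reverse also for 0 receptors, against 0.433%. By rank, 11 of 35 receptors (31.4%) were ahead in both BPA libraries, and so were 28.1% of all genes. They were Thra, Rara, Rarb, Rarg, Ppard, Nr1h3, Rxrb, Nr2f1, Nr2f2, Nr4a1 and Nr4a3. Nr2f2 was counted with no promoter peak in control 2, and its control 1 peak lay at another start site than its BPA peaks. Both shares include genes without a promoter peak in every library. Ordered by fold, 11 receptors were again ahead in both BPA libraries, 8 of them the same, while Nr1h3 and Nr4a3 overlapped and Rara was ahead in both controls. By q-value, 1 receptor (2.86%), Nr6a1, was ahead in both controls, against 11.7% of all genes.

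Among receptors with a promoter peak in all 4 libraries, 10 of 24 (41.7%) were ahead in both BPA libraries and 1 of 24 (4.17%) in both controls, and the shares of all such genes were 40.7% and 18.7%. Over CpG-rich promoters alone, the shares were 9 of 21 receptors (42.9%) against 43.8% of genes in the BPA direction and 1 of 21 (4.76%) against 16% in the control direction. A better rank of promoters in both BPA libraries was thus about as frequent in genes at large as in the receptors. Promoter peaks of endothelial and leukocyte markers were also more numerous in the BPA libraries. Of 4 endothelial markers, the controls had a promoter peak at 2 and 2 and the BPA libraries at 4 and 4, with Pecam1 and Cdh5 absent from both controls. Of 6 leukocyte markers, 2, 2, 3 and 4 had one. The part of cell makeup in the receptor ranks was not tested, and in whole tissue fewer open cells of a type and less open chromatin per cell cannot be told apart.

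**Figure D3:**
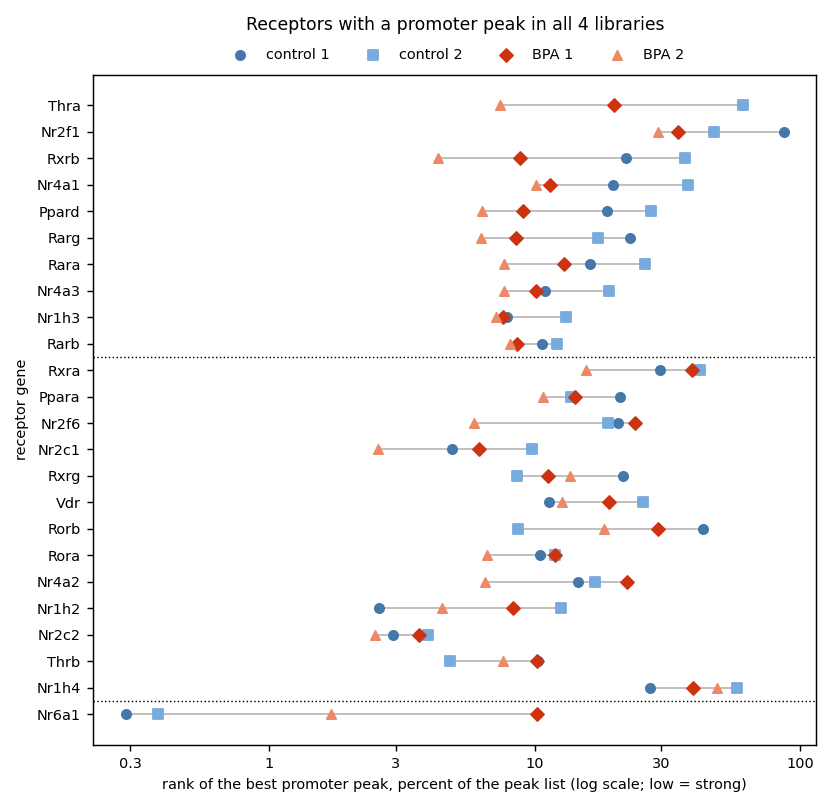
Promoter peak rank in each library (x axis, percent of the peak list, log scale) for the 24 receptors with a promoter peak in all 4 libraries; grey lines join the lowest and highest rank. Dotted lines separate the 10 receptors ahead in both BPA libraries by q-value (top; Rara turned when ordered by fold), the 13 that overlap (middle) and Nr6a1, ahead in both controls (bottom); Thra has the widest gap, 40.7 points.

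Peaks of the 4 libraries were merged where they overlapped by at least 1 bp, and 372 of the 147153 merged regions lay in receptor loci. A peak in each of the 4 libraries was present in 121 of them (32.5%), against 26.3% of all merged regions, and such regions are called shared. Single-library regions made up 33.9% in the loci and 39.5% overall. Of the 121 shared regions, 63 lay in introns, 31 at the receptors' own promoters, 17 upstream, 9 at a start site of another gene and 1 in an exon. Per 100 kb of locus the receptors had a median of 3.49 shared regions and all genes 2.90.

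Rora stood out by number, with 75 regions in a locus of 754 kb, 25 of them in all 4 libraries. Thrb had 42 regions, 8 of them shared, and Rarb 43, of which 5 were shared. Per 100 kb, Nr4a1 (14.3), Nr2f1 (13.4), Thra (12.7), Rara (12.2) and Rxrb (11.3) had the most shared regions, in loci of 26.6 to 57.2 kb against a median of 36.7 kb for all genes. Among loci of at least 100 kb, Rxra reached 6.60 per 100 kb, more than 98.1% of the 2965 genes with such a locus, and Rora 3.31, more than 77.9%. At the other end Rarb and Rorb, with 0.745 and 0.499 per 100 kb, passed 24.2% and 17.1% of these genes, and Hnf4g and Nr5a2 had none. The median of the 9 receptors with a locus of this length was 1.97 per 100 kb, against 1.76 for all such genes, and 2 of the 9 (22.2%) had no shared region, against 10.1%. No shared region at all was found in 6 receptors (17.1%), against 26.7% of all genes, namely Nr1i3, Hnf4g, Nr2e1, Nr5a1, Nr5a2 and Nr0b1.

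**Figure D4:**
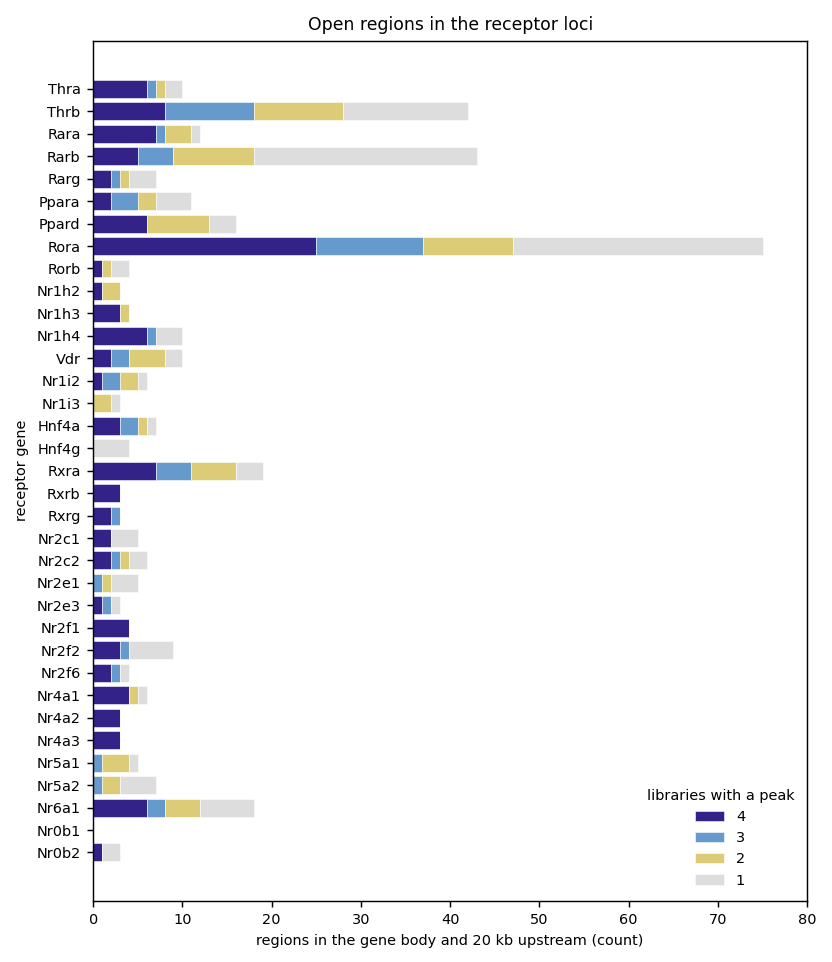
Number of merged open regions (x axis) in the locus of each of the 35 receptors (gene body and 20 kb upstream), with colours for the number of libraries that had a peak in the region. Rora has 75 regions, 25 of them in all 4 libraries, and Nr0b1 has none.

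Beyond their own promoters, 25 receptors had a region with a peak in all 4 libraries, and for 5 of them the best such region was in the best 10% of every list. The upstream regions of Nr4a1 and Nr4a3 were 2 of these. The other 3 lay at start sites of neighbouring genes, namely Nudc upstream of Nr0b2 (5.94%, 4.44%, 4.93% and 4.21%), Babam1 and Ushbp1 upstream of Nr2f6 (1.17%, 3.01%, 7.51% and 7.25%) and Madd just downstream of Nr1h3 (2.33%, 7.66%, 7.66% and 7.37%). Only the NR4A regions therefore had no annotated start site of another gene. Predicted RefSeq transcripts place a further start site of the same receptor at a shared region in 6 receptors, among them Nr4a1 at -12711 bp (44.7%, 53.2%, 22.3% and 16.1%) and Nr1h4 at -9413 bp, in intron 2 (11.3%, 30.0%, 61.1% and 64.8%). The regions of Nr4a1 and Nr1h4 separated the groups in opposite directions.

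Between the groups, 46 of the 121 shared regions (38%) ranked better in both BPA libraries, against 27.7% of all shared regions, and 17 (14%) ranked better in both controls, against 27.5%. Ordered by fold, the share in the BPA direction was close to that of all shared regions, at 36 of 121 (29.8%) against 25.8%, and the share in the control direction was 21 of 121 (17.4%) against 24.8%. Away from the start sites of all genes the counts were 29 of 82 (35.4%) against 21.7%, and 13 of 82 (15.9%) against 31.6%. Rora gave 11 of the 46 regions, Rara 5, Rxra 4 and Nr4a1 4. In Rara, 5 of 7 shared regions were ahead in both BPA libraries. Nr1h4 leaned the other way, with 3 of 6 regions ahead in both controls and 0 in both BPA. Since the regions of one locus are not independent and 1 locus gave 11 of them, no test was made of these shares.

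By number of peaks in the locus, 9 of 35 receptors (25.7%) had more peaks in both BPA than in both control libraries, against 14.3% of all genes. They were Ppard, Rora, Nr1h3, Vdr, Nr1i3, Hnf4a, Rxra, Nr5a1 and Nr5a2. The Ppard locus held 7 and 7 peaks in the controls and 12 and 15 in BPA, and the Rora locus 39 and 39 against 47 and 64. Another 3 receptors (8.57%), Hnf4g, Nr2c1 and Nr2f2, had more in both controls, against 8.89% of all genes. BPA 1 had the shortest peak list and BPA 2 the longest. The median locus was 61.1 kb long in the receptors and 36.7 kb in all genes, and the part of locus length in these shares was not tested.

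A region was reproducible when peaks of both replicates of a group shared at least 50% of their length, and specific when no peak of the other group overlapped it. Of 139 reproducible BPA regions in the receptor loci, 25 (18%) were BPA-specific, against 19.9% of all reproducible BPA regions. Of 109 reproducible control regions, 5 (4.59%) were control-specific, against 11.6%. The BPA-specific regions fell into 13 loci, with 5 in Rora, 4 in Ppard and 3 in Rxra, and 21 of the 25 were intronic. Most were weak, with a median rank of 57.7% in the worse of their libraries.

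The best-ranked BPA-specific region lay in intron 2 of Rara (chr11:98963114-98963992), -1083 bp from its start site at chr11:98964872, at 18.6% in BPA 1 and 12.7% in BPA 2, with pile-ups of 83 and 274. It was 1686 bp from the nearest control peak. Intron 2 of Ppard held the next (chr17:28256687-28257517), 24227 bp inside the gene, at 20.5% and 17.0%, and the nearest control peak was 8093 bp away. A region in intron 1 of Rxra (chr2:27690560-27691535) ranked at 22.6% and 14.1%. The last of the 5 best were in intron 8 of Nr5a2 (chr1:136868849-136869681), at 25.3% and 26.8% in a gene without a reproducible promoter peak, and -11455 bp from Nr1h3 (chr2:91206196-91206874), at 32.9% and 17.2%.

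The 5 control-specific regions were weaker. The best, -10365 bp from the Thra start site (chr11:98730899-98731499), ranked at 49.8% in control 1 and 39.7% in control 2 and lay 1012 bp from the nearest BPA peak. The other 4 were intronic, at 52.1% and 66.1% in Rarb (chr14:17061411-17061937), 77.7% and 32.8% in Ppara (chr15:85792929-85793193), 92.7% and 84.1% in Rxra (chr2:27702423-27702830), and 91.1% and 97.6% in Rora (chr9:69174627-69174958). Thra therefore held both a control-specific region upstream and the promoter with the widest gap in favour of BPA.

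**Figure D5:**
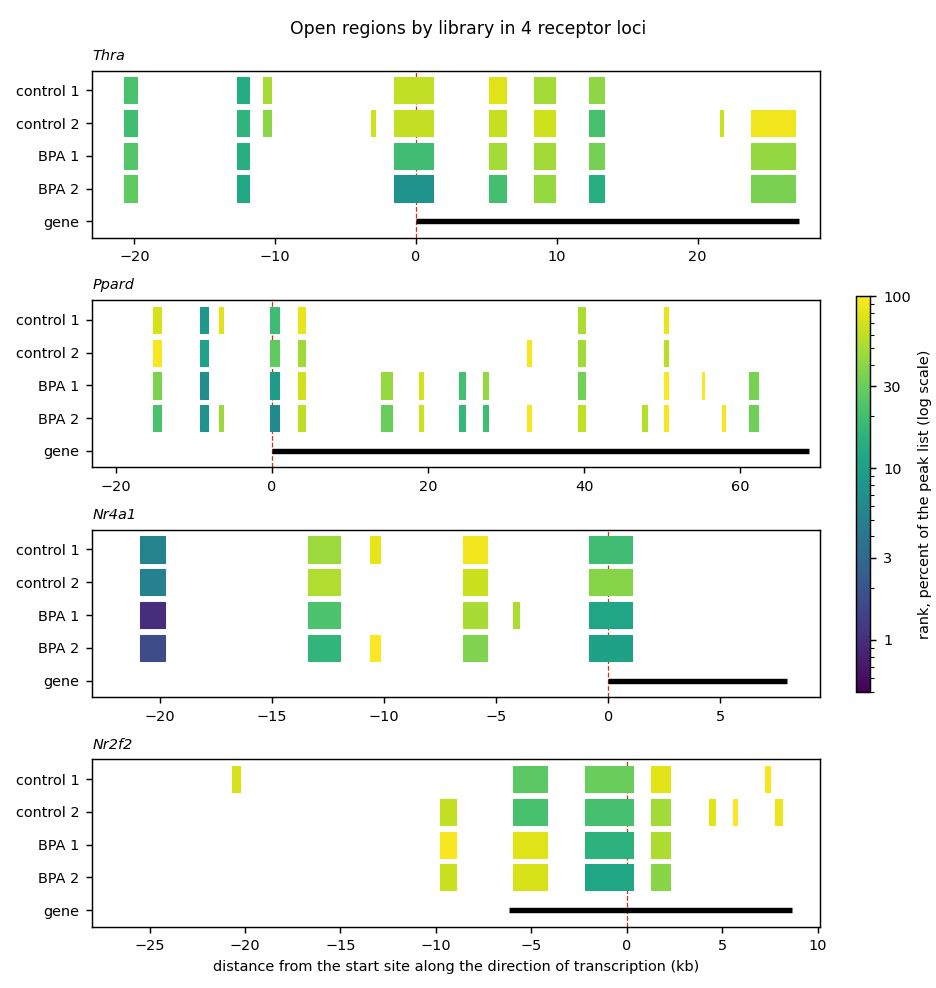
Merged open regions in the loci of Thra, Ppard, Nr4a1 and Nr2f2 (x axis, distance in kb from the start site along the direction of transcription; for Nr2f2 the downstream start site), one row per library, coloured by rank in percent of the peak list (log scale); the black bar is the gene and the dashed line the start site. In Ppard 7 and 7 control peaks face 12 and 15 BPA peaks, and in Nr4a1 the region -20387 bp away is the strongest in every library.

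The cofactors and the genes that make or carry ligands were looked at by lists, to be read against the 57.9% of all genes with a promoter peak in every library and the 30.4% with none. Of 8 coactivators, 7 were open at the promoter in every library, and Ppargc1a, a coactivator of mitochondrial genes, in all but BPA 1. All 7 corepressors were open in each, among them Ncor1 (14.7%, 15.8%, 7.92% and 3.75%) and Nrip1 (7.75%, 11.1%, 4.32% and 2.86%). The partners through which the receptors act were open together with 24 of the 35 receptors. Of 11 genes of retinoid handling, 4 were open in all 4 libraries and 5 in none. The open ones were Rdh10, Aldh1a1 and Aldh1a2, which make retinal and retinoic acid, and Rbp4, the retinol carrier, and Cyp26b1, which breaks down retinoic acid, was among the closed ones.

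For thyroid hormone, 3 of 5 genes were open in all 4 libraries. Dio2, which makes the active hormone in tissue, ranked at 16.8% and 16.9% in the controls and at 57.6% and 41.9% in BPA, the reverse of the Thra order. Of 5 genes of sterol and vitamin D handling 4 were open in all, and Cyp27b1, which makes active vitamin D, had one in both BPA libraries (85.7% and 49.3%) but not in the controls. Of 12 known receptor targets 9 were open in all 4 libraries. Thrsp, a thyroid hormone target in fat, had a peak in BPA 1 and BPA 2 (34.7% and 22.1%) but not in the controls, and the liver X receptor target Srebf1 ranked at 26.2%, 29.8%, 6.14% and 2.50%. Cyp7a1, a bile acid gene of liver, had none.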

How the data were processed

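The series held 4 ATAC-seq libraries of visceral adipose tissue, 2 control and 2 BPA, grouped by their labels. The authors trimmed the reads, mapped them to mm10 with bowtie2 2.3.5.1, kept uniquely mapped reads and discarded duplicates. MACS2 2.2.7.1 was then run by the authors on every library separately. Reads of an outbred stock were thus mapped to another strain's genome. The deposited ratio is the summit pile-up as a fold of the background estimated around it, and the authors' −log10 p-value and −log10 q-value come from the peak caller, with the q-value cut at 0.05. No value is scaled between libraries, so peaks were ranked by q-value within each list.

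From these lists, overlaps with 45756 curated RefSeq transcripts (GRCm38.p6, the assembly that mm10 names) were computed with Python 3.11.15, numpy 2.4.6, pandas 2.3.3 and scipy 1.17.1, and figures were drawn with matplotlib 3.10.9. Pile-ups were solved from the fold and p-value within a relative tolerance of 0.0001 for 100% of peaks. On simulated lists, 8 of 8 checks of overlaps, ranks and specific regions came back as built. The 35 members, the further lists and the marker lists were chosen with earlier results of these data known. Values in every library are printed for receptors whose promoter peak is in the best 25% of any list or in 1 to 3 libraries, or that have a promoter without a peak. Outside promoters the best region present in all 4 libraries is printed where it lies in the best 10% of every list, with the 5 best specific regions of each group. Of the 59 promoter windows (250 bases before to 50 after the start site), 46 matched the RefSeq promoter table, and printed promoters come from it. No test was run between groups. Results for some genes of the further lists are not reported here.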

Additional observations from a re-analysis of the deposited data

How the results depend on the processing

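The counts were recomputed with other thresholds, windows, ranks and overlaps and without each library, which gave 91 values, 62 of them within 1.5 times the count reported. Keeping the best 20000 peaks left 14 receptors with a promoter peak in all 4 libraries, 12 with none, 16 open start sites, 23 shared regions and 15 BPA-specific regions, and put 2 receptors (Thra and Nr2f2) in both BPA and neither control library. With summits inside the window, Thrb, Rxra, Nr2f1 and Nr4a3 left the receptors open in all 4 libraries (20 in all), 8 receptors had no promoter peak and 2 (Rxra and Nr4a3) had one in both BPA libraries alone. Predicted transcripts gave 70 open start sites and 3 receptors (Nr1h3, Nr1h4 and Nr6a1) ahead in both controls. They also added Nr5a2 to the receptors open in all 4 libraries (25 in all) and to those ahead in both BPA libraries. Ranking by fold also put 3 receptors (Rara, Nr2c2 and Nr6a1) ahead in both controls. Ranking the shared regions by fold was added after seeing the data. Control-specific regions numbered 2 at a −log10 q-value of at least 5, 8 with partner overlaps of 1 bp, 2 with 80% and 34 against reproducible peaks alone, and BPA-specific regions 8 with 80% and 63 against reproducible peaks alone. The cause of these moves was not tested.

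Leaving out single libraries moved the receptors without a promoter peak between 5 and 8 (8 without BPA 2), those in both BPA and neither control between 0 and 3 (1, Nr2f2, without control 1 and 3 without BPA 1), those in both controls and neither BPA between 0 and 1 (1, Nr5a2, without control 2), those ahead in both BPA between 11 and 22 (17 without control 1, 22 without BPA 1) and those ahead in both controls between 1 and 5 (4 without control 1, 5 without control 2, 4 without BPA 2). BPA-specific regions ran from 29 to 38 (38 without control 2) and control-specific ones from 10 (without BPA 1) to 13 (without BPA 2). Without 1 library of a group the reproducible regions of that group cannot be counted, so those values were not made. No paired analysis was possible because the replicate numbers link no animals, and no test was run on any result. Depth can limit the absent peaks, and its part was not tested. The share of all genes with a promoter peak was 62.6%, 61.4%, 64.1% and 67.4%, with libraries ordered as above. BPA 1, the shallowest library, thus lacked promoter peaks at fewer genes than either control.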
